A study of Mus musculus with 20 samples.

Results

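The 10 genes described here encode enzymes that make ceramide and turn it into sphingomyelin, glucosylceramide and sphingosine 1-phosphate: Sptlc1, Sptlc2, Cers2, Cers4, Cers5, Cers6, Degs1, Sgms1, Ugcg and Sphk1. They were chosen by name as synthesis enzymes of this pathway, and all 10 were among the 14776 genes deposited. Messenger RNA was measured in epididymal white adipose tissue (eWAT), the visceral fat pad of male C57BL/6J mice that entered the feeding period at 6 weeks of age. The NC group (6 mice) ate normal chow. The HFD group (7 mice) ate a high-fat diet with 60% of its energy from fat for 14 weeks and, for a further 6 weeks on the same diet, was given saline into the stomach. The SZ-A group (7 mice) was fed in the same way and received Ramulus Mori (Sangzhi) alkaloids (SZ-A), an extract of mulberry twig, at 400 mg per kg each day over those 6 weeks. HFD and SZ-A mice therefore shared the diet and differed in the treatment, and NC and SZ-A mice differed in both. Levels are FPKM, fragments scaled to the length of all annotated exons of the gene and to a library size set for each mouse. Levels of different genes can be set side by side only as far as that annotated length is the length expressed. Between 13565482 and 19383926 reads per mouse lay on the deposited genes, and the lowest value of any of the 10 genes, Cers4 in an NC mouse, rested on 78 reads.

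Sphingolipids are membrane lipids built on a long-chain base. Serine palmitoyltransferase, whose core subunits are encoded by Sptlc1 and Sptlc2, joins serine and palmitoyl-CoA in the first and rate-limiting step. Ceramide synthases add a fatty acid, each with its own preference for chain length, and the desaturase encoded by Degs1 turns dihydroceramide into ceramide, which is then made into sphingomyelin, into glycosphingolipids, or broken down to sphingosine and phosphorylated. In adipose tissue, ceramide is known above all for its link to insulin resistance in obesity.

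The tissue held RNA of several cell types, and their shares differed between the groups. All 12 adipocyte markers were among the deposited genes, which were all above 0 in every mouse. Their summed level ranged from 519 to 23840 FPKM in NC mice, from 1478 to 6605 in HFD mice and from 4601 to 15270 in SZ-A mice. NC replicate 6 stood apart, with 519 FPKM against 9581 to 23840 in the other NC mice. It was also the lowest NC mouse for macrophage, fibroblast and preadipocyte, endothelium, T cell and B cell markers, though not for mast cell markers. Its endothelium markers summed to 13.03 FPKM, against 220.3 to 586.7 in the other NC mice. NC replicate 6 was kept in the main fits. The 15 macrophage markers, all detected, summed to 87.9 to 855 FPKM in NC mice, 3551 to 9415 in HFD mice and 1442 to 4770 with SZ-A, highest in HFD replicates 1 and 5 and in SZ-A replicates 5 and 6. The 10 fibroblast and preadipocyte markers summed to 55.6 to 751, 1243 to 1733 and 408 to 810 FPKM in the same order of groups. The 5 mast cell markers deposited of 7 summed to 4.27 to 27.6, 50.5 to 707.7 and 13.3 to 65.9 FPKM, and the 4 mesothelium markers deposited of 10 to 21.6 to 627, 4.45 to 17.3 and 0.506 to 235.5 FPKM, highest in NC replicate 6. None of 15 markers of epididymis epithelium was among the deposited genes. A marker at 0 in any mouse would be missing as well, so this does not show whether single samples held epididymis. Mitochondrial transcripts made up 3.30% to 8.35% of the reads on the deposited genes for NC, 1.67% to 2.92% for HFD and 1.67% to 11.6% for SZ-A mice. In bulk tissue, more cells of one type and more RNA per cell cannot be told apart, and the part of these shifts in the results below was not tested.

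**Figure D1:**
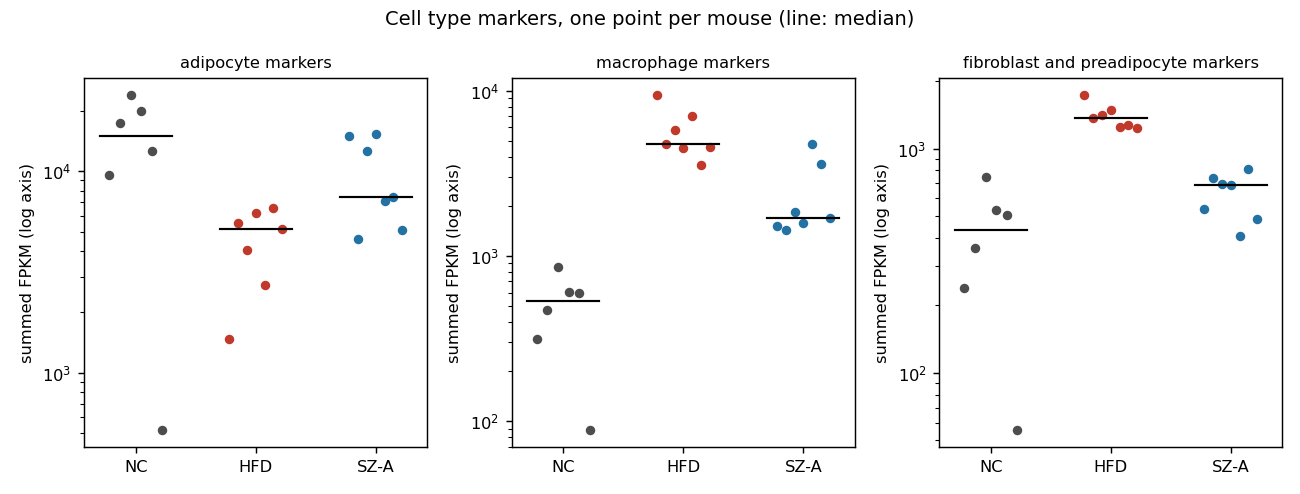
Summed FPKM (log axis) of adipocyte, macrophage and fibroblast and preadipocyte markers, one point per mouse and a line at the median of each group. Macrophage sums of the NC mice (87.9 to 855) lay below those of all SZ-A mice (1442 to 4770), and one NC mouse had an adipocyte sum of 519.

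Compared with NC, Degs1, Sptlc2 and Cers2 were higher in HFD mice and none of the 10 was lower at an adjusted p under 0.05 (limma on log2(FPKM + 1), Benjamini-Hochberg over all genes tested). The same 3 genes were lower in SZ-A-treated than in HFD mice, and none was higher. Against NC, SZ-A mice differed in Degs1 alone, which was higher. Both main comparisons share the HFD mice, so that a high or low HFD group moves both in opposite directions.

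These counts were read against all genes tested. In HFD against NC, 21.0% of 14706 genes were called higher and 20.1% lower, so 3 of 10 higher is near the share over all genes, and 0 of 10 were lower. In SZ-A against HFD, 9.47% of 14695 genes were higher and 13.3% lower, beside 0 and 3 of the 10. In SZ-A against NC, 4.15% of 14718 genes were higher and 0.455% lower, beside 1 and 0 of the 10. With the study's additional requirement that the log2 fold change exceed 1.5 up or down, 0 of the 10 passed in any comparison, while 7.97%, 0.864% and 1.79% of all genes did so in the same order. With a fold change above 1.5 up or down in place of the log2 value, a cut also named in the study, Degs1 and Sptlc2 passed in HFD against NC, none in SZ-A against HFD and Degs1 in SZ-A against NC, beside 27.8%, 12.5% and 4.24% of all genes. Groups without overlap were found for 1 of the 10, Degs1, in each comparison, and for 20.5%, 6.08% and 3.57% of all genes. The median log2 fold change of the 10 was 0.28 in HFD against NC, -0.15 in SZ-A against HFD and 0.09 in SZ-A against NC, and the median of all genes was -0.04, 0.03 and -0.00.

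**Figure D2:**
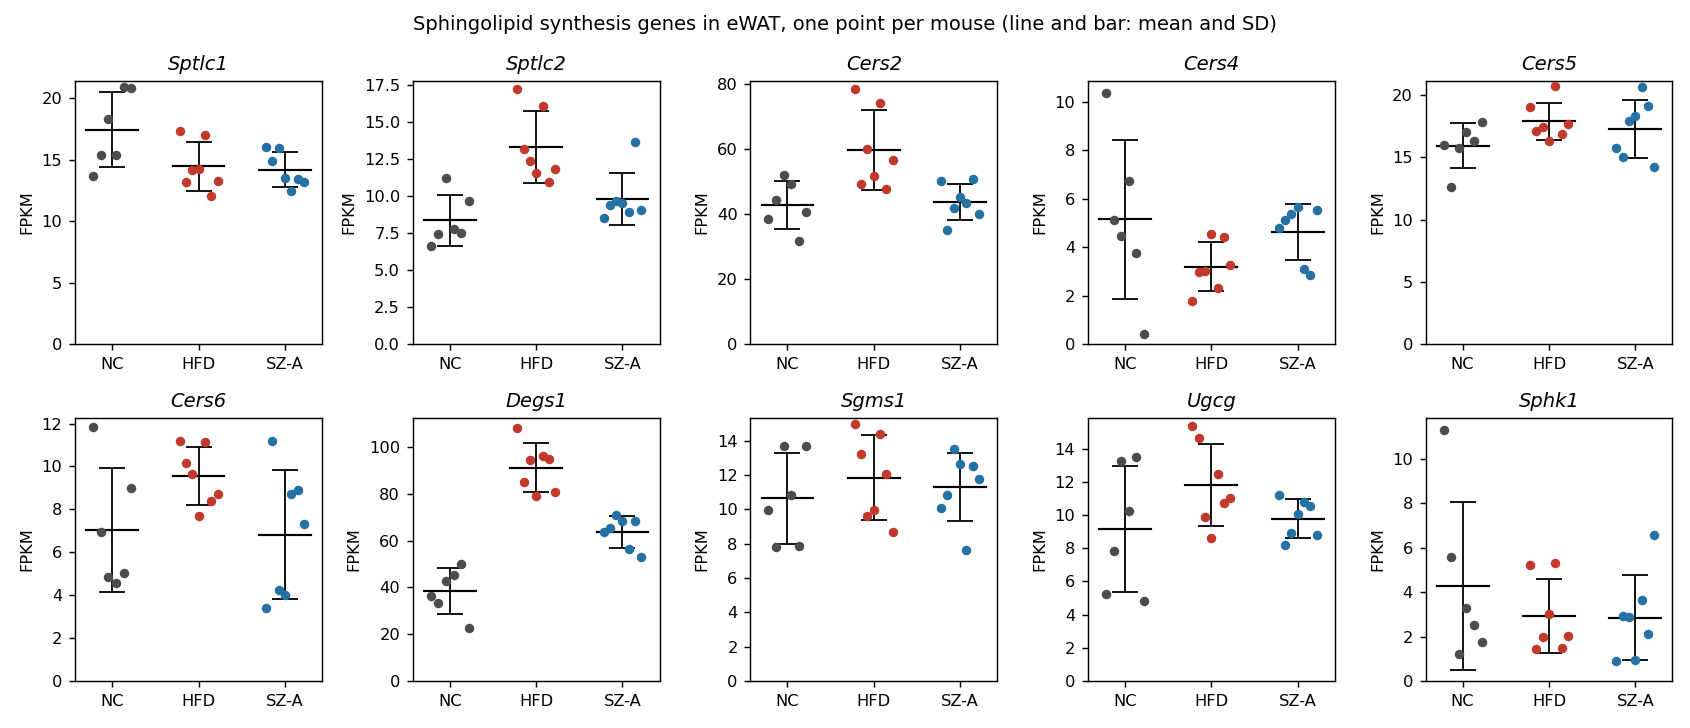
FPKM of the 10 genes in each mouse of the NC, HFD and SZ-A groups, with the mean and SD (axes start at 0 and differ between genes). Degs1 occupies 3 separate ranges (22.8 to 50.0, 79.0 to 108.4 and 53.2 to 71.0), while the groups overlap in the other genes.

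Degs1 (ENSMUSG00000038633, chr1:182275772-182282804, minus strand, GRCm38) encodes the dihydroceramide desaturase of the last step to ceramide. Its level ran from 22.8 through a median of 39.5 to 50.0 FPKM in NC mice, from 79.0 through 94.8 to 108.4 in HFD mice and from 53.2 through 65.3 to 71.0 in SZ-A mice. Every HFD mouse lay above every SZ-A mouse, and every SZ-A mouse above every NC mouse. The mean was 38.5 ± 9.73 FPKM in NC (SD, n = 6), 91.4 ± 10.3 in HFD (SD, n = 7) and 63.8 ± 6.67 in SZ-A mice (SD, n = 7). Degs1 rose by 1.26 on the log2 scale in HFD against NC mice (SE 0.17, limma adjusted p = 6.27e-05), the largest change among the 10 genes. SZ-A mice had less Degs1 than HFD mice, with a log2 fold change of -0.51 (SE 0.11, limma adjusted p = 0.00423), but still more than NC mice, with 0.75 (SE 0.18, limma adjusted p = 0.0245). The 2-sided exact permutation p was 5.83e-04 in the HFD against SZ-A comparison, the smallest that 3432 regroupings of the mice can give. NC replicate 6, which had low sums of adipocyte, macrophage, fibroblast and endothelium markers, was the lowest Degs1 mouse. Without it the difference between HFD and NC was 1.12 (SE 0.13, limma adjusted p = 1.52e-05). The difference between SZ-A and NC fell short of the threshold without NC replicate 1 or 2 or without SZ-A replicate 3, 4 or 6, with log2 fold changes of 0.72 to 0.74 and limma adjusted p from 0.0507 to 0.0704.

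The rank of Degs1 among the 10 genes differed by group. Ranks by FPKM depend on the annotated exon length, 12264 bases for Cers4 and 3676 for Cers2. In NC replicate 1, 2050 reads of Cers4 gave 10.4 FPKM and 2286 reads of Cers2 gave 38.6 FPKM. In NC mice Cers2 had the highest mean, 42.8 FPKM, with Degs1 next at 38.5, and their ranges overlapped. In HFD and SZ-A mice Degs1 came first and its range lay above that of Cers2 in both groups. Cers2 in turn lay above Cers5, the third in both groups, without overlap. In NC mice the lowest Degs1 value, 22.8 FPKM, was still above the highest value of Sptlc1, 20.9. Below these, neighbours in the order overlapped in every group, except that all HFD mice had more Cers6 (7.71 to 11.2 FPKM) than the highest Cers4 value of that group, 4.55.

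Sptlc2 (ENSMUSG00000021036, chr12:87305058-87388355, minus strand) encodes a catalytic subunit of serine palmitoyltransferase. Its level ran from 6.61 through a median of 7.63 to 11.2 FPKM in NC mice, from 10.9 through 12.3 to 17.2 in HFD mice and from 8.49 through 9.38 to 13.6 in SZ-A mice. The NC and HFD ranges met only through NC replicate 3 and HFD replicate 6, and 6 of 7 SZ-A mice lay below the HFD median. Sptlc2 rose by 0.61 on the log2 scale in HFD against NC mice (SE 0.14, limma adjusted p = 0.00371) and fell by 0.40 in SZ-A against HFD mice (SE 0.12, limma adjusted p = 0.0294). SZ-A and NC mice differed by 0.21 (95% interval -0.10 to 0.52), which did not pass the test. Without HFD replicate 1, the mouse with the highest macrophage markers and the highest Sptlc2, the difference between SZ-A and HFD was -0.34 and no longer passed (limma adjusted p = 0.0617). The same call was lost without HFD replicate 5 or SZ-A replicate 1, 3, 4 or 7, with log2 fold changes of -0.40 to -0.36 and limma adjusted p from 0.0514 to 0.0679, while the call of HFD against NC was kept without any single mouse.

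Sptlc1 (ENSMUSG00000021468, chr13:53332748-53377397, minus strand) encodes the partner subunit, which anchors the enzyme and is needed for its activity. Its level ran from 13.7 to 20.9 FPKM in NC, from 12.0 to 17.3 in HFD and from 12.5 to 16.0 in SZ-A mice, with medians of 16.9, 14.2 and 13.5. The groups overlapped, and none of the 3 comparisons passed: HFD against NC gave -0.25 (95% interval -0.52 to 0.03), SZ-A against HFD -0.02 (-0.23 to 0.19) and SZ-A against NC -0.27 (-0.55 to 0.01). Within a mouse, the log2 ratio of Sptlc2 to Sptlc1 was -1.06 ± 0.25 in NC (SD, n = 6), -0.13 ± 0.11 in HFD (SD, n = 7) and -0.55 ± 0.29 in SZ-A mice (SD, n = 7). The NC ratios, from -1.48 to -0.71, all lay below the HFD ratios, from -0.30 to -0.00. The SZ-A ratios, from -0.91 to 0.02, overlapped both, and the highest belonged to SZ-A replicate 6, which also had the highest Sptlc2 of its group. These ratios are a description and carry no test.

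**Figure D3:**
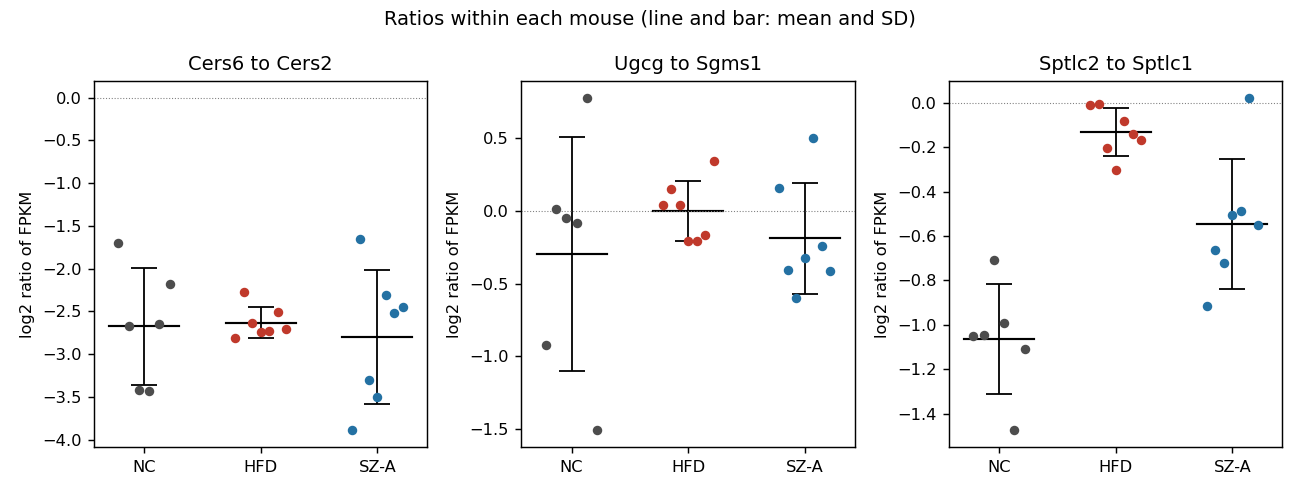
Log2 ratios of FPKM within each mouse for Cers6 to Cers2, Ugcg to Sgms1 and Sptlc2 to Sptlc1, with the mean and SD per group. The ratio of Sptlc2 to Sptlc1 was below -0.70 in all NC mice and between -0.30 and -0.00 in the HFD mice, and the other ratios overlap between the groups.

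Cers2 (ENSMUSG00000015714, chr3:95314791-95323599, plus strand) encodes the ceramide synthase that uses very long acyl chains and was the most abundant ceramide synthase in every group. Its level ran from 31.7 through a median of 42.6 to 51.9 FPKM in NC mice, from 47.6 through 56.7 to 78.6 in HFD mice and from 35.2 through 43.3 to 50.9 in SZ-A mice. All HFD mice lay above the NC median and all SZ-A mice below the HFD median, but both pairs of groups overlapped. Cers2 rose by 0.47 in HFD against NC mice (SE 0.16, limma adjusted p = 0.0298) and fell by 0.42 in SZ-A against HFD mice (SE 0.13, limma adjusted p = 0.0322). SZ-A and NC mice differed by 0.04 (95% interval -0.27 to 0.36). Without HFD replicate 1 neither change of Cers2 passed: HFD against NC gave 0.40 (limma adjusted p = 0.0572) and SZ-A against HFD -0.36 (limma adjusted p = 0.0657). The first call was also lost without NC replicate 1 or 5 or HFD replicate 3 or 5 (0.39 to 0.46, limma adjusted p from 0.052 to 0.0631), under quantile normalization (0.37, limma adjusted p = 0.0518) and with array quality weights (0.35, limma adjusted p = 0.0568), and the second without SZ-A replicate 2, 3 or 7 or HFD replicate 3 or 5 (-0.42 to -0.37, limma adjusted p from 0.0511 to 0.0737).

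The other ceramide synthases did not pass in any comparison, although fits with array quality weights, which give less weight to mice that vary more, called Cers6 and Cers4 in HFD against NC (0.54 and -0.56, limma adjusted p = 0.00707 and 0.0398) and in SZ-A against HFD (-0.84 and 0.45, limma adjusted p = 6.57e-04 and 0.0174). Cers6 (ENSMUSG00000027035, chr2:68861441-69114282, plus strand), which prefers palmitoyl chains, ran from 4.58 to 11.9 FPKM in NC, from 7.71 to 11.2 in HFD and from 3.38 to 11.2 in SZ-A mice, with medians of 6.00, 9.64 and 7.31. HFD against NC gave 0.45 (95% interval 0.04 to 0.87, limma adjusted p = 0.0737) and SZ-A against HFD -0.52 (-0.98 to -0.06, limma adjusted p = 0.0918). The NC and SZ-A mice spread widely (SD 2.89 and 2.99 FPKM) beside the HFD mice (SD 1.36), and 3 SZ-A mice lay below the lowest NC mouse. Without NC replicate 1, the NC mouse with the most Cers6, HFD against NC passed (0.60, limma adjusted p = 0.0104), as did SZ-A against HFD without SZ-A replicate 2, the SZ-A mouse with the most (-0.64, limma adjusted p = 0.0282). Cers5 (ENSMUSG00000023021, chr15:99734881-99772885, minus strand), which uses similar chains, had similar means of 15.9 ± 1.79 in NC (SD, n = 6), 17.9 ± 1.51 in HFD (SD, n = 7) and 17.3 ± 2.33 FPKM in SZ-A mice (SD, n = 7). Its log2 fold change was 0.16 in HFD against NC (95% interval -0.06 to 0.38) and -0.05 in SZ-A against HFD mice (-0.26 to 0.16). The log2 ratio of Cers6 to Cers2 overlapped between the groups, at -2.68 ± 0.68 in NC (SD, n = 6), -2.63 ± 0.19 in HFD (SD, n = 7) and -2.80 ± 0.78 in SZ-A mice (SD, n = 7).

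Cers4 (ENSMUSG00000008206, chr8:4493026-4531680, plus strand), a synthase for long and very long chains, had the opposite signs to Cers2 and Cers6 in HFD against NC and in SZ-A against HFD. Its level ran from 0.436 through a median of 4.79 to 10.4 FPKM in NC mice, from 1.79 through 3.03 to 4.55 in HFD mice and from 2.85 through 5.12 to 5.64 in SZ-A mice. All HFD mice lay below the NC median and 6 of 7 SZ-A mice above the HFD median. HFD against NC gave -0.35 (SE 0.37, limma adjusted p = 0.478) and SZ-A against HFD 0.43 (SE 0.18, limma adjusted p = 0.0892), neither past the threshold. The first depended on single NC mice. Without NC replicate 1, the highest, it was -0.12 (limma adjusted p = 0.81). Without NC replicate 6, the mouse at 0.436 FPKM and at 519 FPKM of adipocyte markers, Cers4 fell by 0.72 in HFD against NC mice (SE 0.22, limma adjusted p = 0.0186), and 5 of the 10 genes were called in place of 3, Cers6 being the other addition (0.53, limma adjusted p = 0.0381). Without SZ-A replicate 5 or 6, the treated mice with the highest macrophage markers, Cers4 was higher in SZ-A-treated than in HFD mice (0.50 and 0.52, limma adjusted p = 0.0421 and 0.0404). Within the HFD and the SZ-A group alike, the 2 mice with the highest macrophage sums were the 2 with the lowest Cers4. The NC group did not show this. Its lowest Cers4 was in NC replicate 6, the mouse with the lowest macrophage sum, 87.9 FPKM. NC replicates 3 and 4, with the highest macrophage sums, had 4.46 and 6.74 FPKM of Cers4.

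Sgms1 (ENSMUSG00000040451, chr19:32122727-32389714, minus strand) encodes the Golgi enzyme that makes sphingomyelin from ceramide. Its mean was 10.7 ± 2.64 FPKM in NC (SD, n = 6), 11.8 ± 2.47 in HFD (SD, n = 7) and 11.3 ± 1.98 in SZ-A mice (SD, n = 7), with ranges of 7.81 to 13.7, 8.68 to 15.0 and 7.63 to 13.5. The log2 fold change was 0.15 in HFD against NC (95% interval -0.21 to 0.51) and -0.06 in SZ-A against HFD mice (-0.36 to 0.25). Ugcg (ENSMUSG00000028381, chr4:59189257-59222833, plus strand) encodes the glucosylceramide synthase that opens the branch to glycosphingolipids. It ran from 4.82 to 13.5 FPKM in NC, from 8.65 to 15.3 in HFD and from 8.21 to 11.2 in SZ-A mice, with medians of 9.05, 11.0 and 10.1. The groups overlapped, and neither the 0.41 of HFD against NC (95% interval -0.09 to 0.90) nor the -0.23 of SZ-A against HFD mice (-0.50 to 0.03) passed. The log2 ratio of Ugcg to Sgms1 overlapped as well, at -0.30 ± 0.80, -0.00 ± 0.21 and -0.19 ± 0.38 (SD; n = 6, 7 and 7).

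Sphk1 (ENSMUSG00000061878, chr11:116530925-116536674, plus strand), a sphingosine kinase, had the lowest mean FPKM of the 10 genes in each group. It ran from 1.23 through a median of 2.90 to 11.3 FPKM in NC mice, from 1.45 through 2.04 to 5.30 in HFD mice and from 0.915 through 2.88 to 6.57 in SZ-A mice. The spread within groups was larger than any difference between them, with an SD of 3.77 FPKM for NC, 1.68 for HFD and 1.93 for SZ-A mice. The log2 fold change was -0.28 in HFD against NC (95% interval -1.09 to 0.54) and -0.07 in SZ-A against HFD mice (-0.73 to 0.60). NC replicate 1 held the highest value, and without it the first difference was 0.02.

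**Figure D4:**
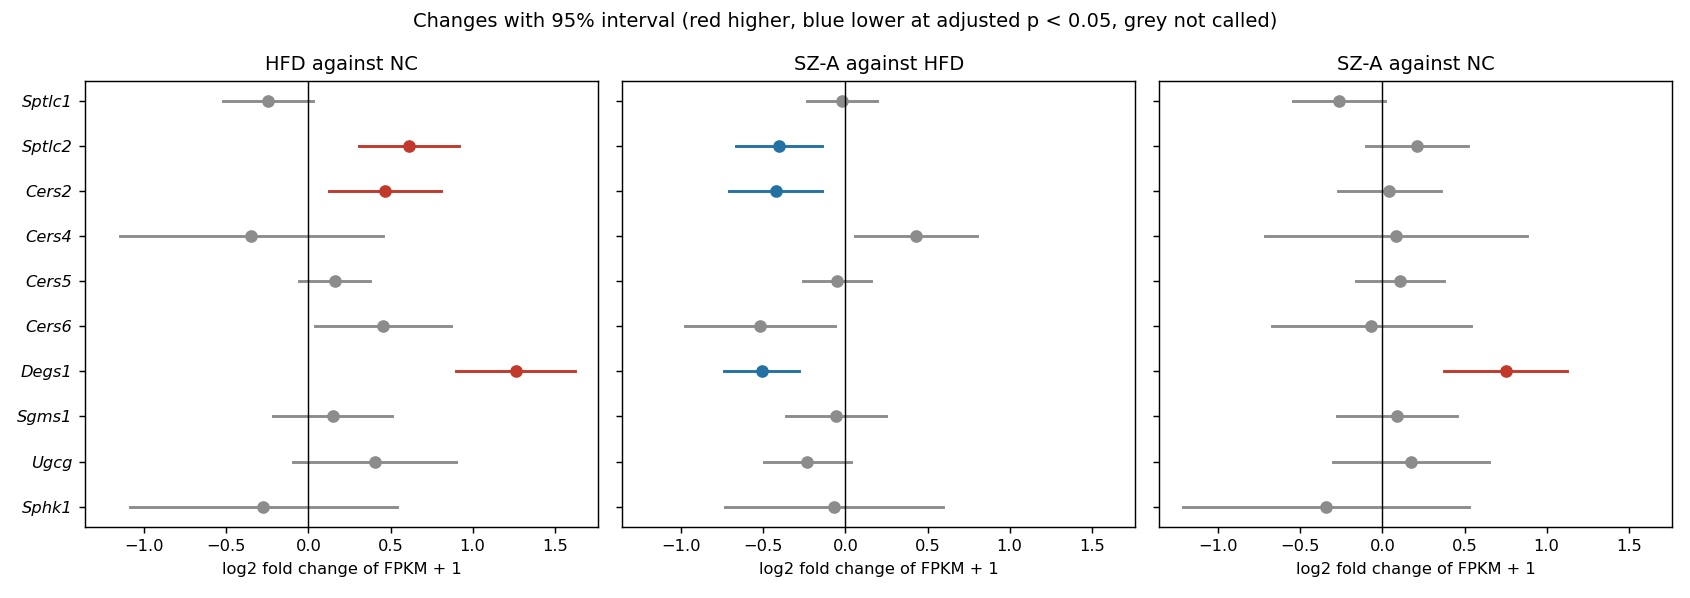
Log2 fold change of FPKM + 1 with its 95% interval for the 10 genes in HFD against NC, SZ-A against HFD and SZ-A against NC. Red points are higher and blue points lower at an adjusted p under 0.05. Degs1, Sptlc2 and Cers2 are red in the first panel and blue in the second, and Degs1 stays red in the third, at 0.75.

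Within the HFD group, the same pair of mice led most of these genes. HFD replicates 1 and 5 had the 2 highest macrophage sums, 9415 and 7027 FPKM, and the 2 lowest adipocyte sums, 1478 and 2738 FPKM. They were also the 2 highest HFD mice for 8 of the 10 genes, Sptlc1, Sptlc2, Cers2, Cers5, Cers6, Degs1, Sgms1 and Sphk1, and the 2 lowest for Cers4. The share of all genes led by this pair was not computed, so the 8 of 10 cannot be called particular to these genes. The count rests on FPKM with no further scaling between mice. In HFD replicates 1 and 5 the reads on the deposited genes, 17212523 and 19087525, exceeded the library sizes behind the FPKM, 15406890 and 17532205. No other HFD mouse had so wide a margin, and its part in the count was not tested. In the SZ-A group, the pair with the highest macrophage sums led 1 of the 10 genes, Cers5. In the NC group the corresponding pair led Cers2 alone and was lowest for Cers6. Leaving out HFD replicate 1 or HFD replicate 5 left 2 genes called in HFD against NC, Degs1 and Sptlc2, and 1 in SZ-A against HFD, Degs1. Leaving out SZ-A replicate 3 or 7 likewise left Degs1 alone in SZ-A against HFD.

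The promoters of Degs1, Sptlc2 and Cers2, the genes that were higher with the diet and lower with SZ-A, are shown for their base composition and short motifs. Each stretch is the longest part of the RefSeq promoter window (GRCm38.p6, 300 bases around the start of the gene) that holds no annotated exon of the gene, written 5' to 3' on the strand of the gene. That of Degs1 is chr1:182282225-182282445 on the minus strand, 221 bases in an intron of a longer annotated transcript. That of Sptlc2 is chr12:87388356-87388605 on the minus strand, the 250 bases before the gene. That of Cers2 is chr3:95314940-95315083 on the plus strand, 144 bases in an intron of a longer annotated transcript. Capitals mark the CCAAT box, the GC box (GGGCGG) and the E-box (CACGTG), searched on both strands. On the opposite strand the CCAAT box reads ATTGG and the GC box CCGCCC, and no marked motif overlapped another.
Degs1: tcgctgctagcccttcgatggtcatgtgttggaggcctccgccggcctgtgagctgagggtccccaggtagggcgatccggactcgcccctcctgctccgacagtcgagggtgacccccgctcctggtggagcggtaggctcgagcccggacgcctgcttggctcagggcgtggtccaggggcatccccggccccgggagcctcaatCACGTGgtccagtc
Sptlc2: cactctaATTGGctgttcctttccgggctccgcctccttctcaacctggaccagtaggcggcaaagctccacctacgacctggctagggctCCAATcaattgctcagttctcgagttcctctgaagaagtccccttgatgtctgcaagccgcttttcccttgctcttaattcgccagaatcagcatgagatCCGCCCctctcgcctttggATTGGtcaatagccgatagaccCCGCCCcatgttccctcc
Cers2: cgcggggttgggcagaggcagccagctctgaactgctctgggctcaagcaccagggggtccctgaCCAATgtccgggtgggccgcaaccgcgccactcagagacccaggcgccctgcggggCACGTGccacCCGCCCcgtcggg
The Degs1 stretch held 1 E-box and neither of the others, the Sptlc2 stretch 3 CCAAT boxes and 2 GC boxes, and the Cers2 stretch 1 of each. No marked motif was thus present in all 3 stretches. The full windows of the Degs1, Sptlc2 and Cers2 stretches were 67.3%, 59.3% and 75.0% G and C, beside a median of 52.7% over all windows. All 10 genes had full windows, 18 in all with some that overlap each other, and of these 8 held a GC box, 7 a CCAAT box, 5 an E-box and 2 a TATA box (TATAAA). Of 32851 windows of all genes, 35.7% held a GC box, 37.4% a CCAAT box, 7.20% an E-box and 13.6% a TATA box. Counted by gene, 7 of the 10 had a GC box in any window, 6 a CCAAT box, 4 an E-box and 2 a TATA box. These matches are letters in a window and were not tested for binding.

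Changes beyond the range of the 10 synthesis genes were measured among the other genes of sphingolipid metabolism. Of 74 genes listed for the pathway by role, 65 were deposited, and 55 of these were not among the 10. In HFD against NC mice 19 of the 55 were higher and 6 lower (34.5% and 10.9%, beside 21.0% and 20.1% of all genes), with a median log2 fold change of 0.34. In SZ-A against HFD mice 4 were higher and 18 lower (7.27% and 32.7%, beside 9.47% and 13.3%), with a median of -0.20. In SZ-A against NC mice 10 were higher and 1 lower (18.2% and 1.82%, beside 4.15% and 0.455%), with a median of 0.19. The list was tested gene by gene only, and 9 listed genes, the ceramide synthases Cers1 and Cers3 among them, were not analysed here.

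**Figure D5:**
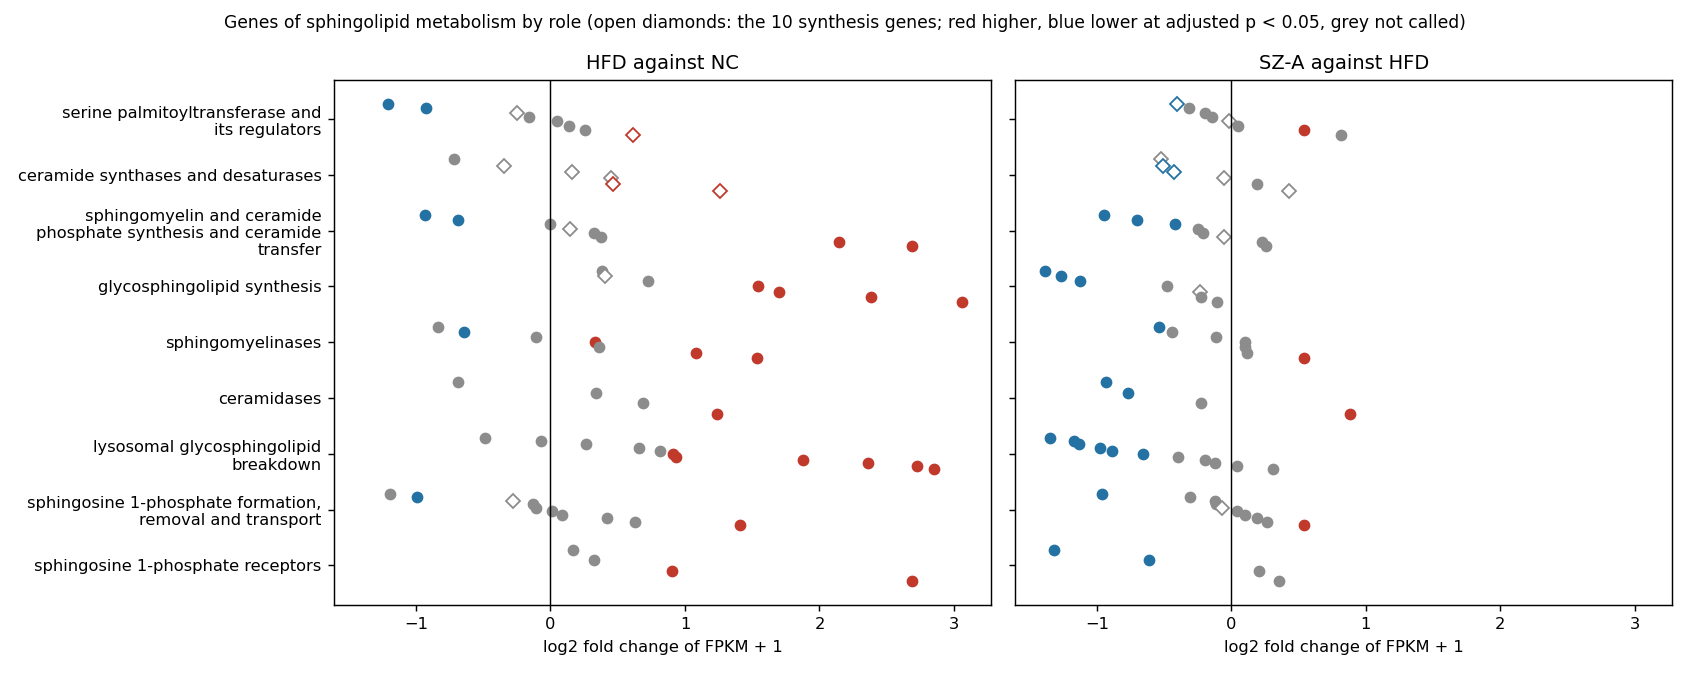
Log2 fold change of FPKM + 1 of the deposited genes of sphingolipid metabolism by role, in HFD against NC and SZ-A against HFD mice. Open diamonds are the 10 synthesis genes, red points are higher and blue points lower at an adjusted p under 0.05, and grey points did not pass. Of the 11 genes of lysosomal breakdown, 6 are red on the left and 6 blue on the right.

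Around the first step, Kdsr, which encodes the reductase between serine palmitoyltransferase and the ceramide synthases, moved in the opposite direction to Sptlc2. Its mean was 11.8 ± 2.78 FPKM in NC (SD, n = 6), 4.47 ± 0.58 in HFD (SD, n = 7) and 6.99 ± 1.15 in SZ-A mice (SD, n = 7). It fell by 1.21 on the log2 scale in HFD against NC mice (SE 0.14, limma adjusted p = 2.31e-05), without overlap between the groups, and rose by 0.54 in SZ-A against HFD mice (SE 0.11, limma adjusted p = 0.00362). Ormdl3, an inhibitor of serine palmitoyltransferase, fell by 0.92 in HFD against NC mice (limma adjusted p = 0.0474), and its 0.82 in SZ-A against HFD mice did not pass (limma adjusted p = 0.0528). The NC and HFD ranges of Ormdl3 overlapped, at 52.6 to 240 and 32.9 to 113 FPKM. Sptlc3, an alternative catalytic subunit, and Sptssa, a small activating subunit, did not pass in HFD against NC (0.14 and 0.05) or in SZ-A against HFD mice (0.05 and -0.20). Degs2, the desaturase related to Degs1, did not pass either (-0.71, limma adjusted p = 0.125, and 0.19, limma adjusted p = 0.264).

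Beyond ceramide, Sgms2, the second sphingomyelin synthase, fell by 0.93 in HFD against NC mice (limma adjusted p = 0.0442), where Sgms1 gave 0.15. The HFD range of Sgms2, 2.47 to 4.21 FPKM, lay inside the NC range, 1.96 to 21.6. Its 0.22 in SZ-A against HFD mice did not pass (limma adjusted p = 0.614). Cerk, the ceramide kinase, had its highest mean in HFD mice, at 46.1 ± 6.88 FPKM (SD, n = 7), beside 6.52 ± 2.25 in NC (SD, n = 6) and 27.4 ± 19.0 in SZ-A mice (SD, n = 7). The SZ-A mice ran from 12.1 to 63.1 FPKM, across the whole HFD range of 37.4 to 59.0. Cerk rose by 2.69 in HFD against NC (limma adjusted p = 1.73e-07) and fell by 0.95 in SZ-A against HFD mice (limma adjusted p = 0.0332). In SZ-A mice it stayed 1.74 above NC (limma adjusted p = 0.012). Downstream of Ugcg, 4 of the 6 other genes of glycosphingolipid synthesis were higher in HFD than in NC mice (beside 21.0% of all genes) and 3 were lower in SZ-A-treated than in HFD mice (beside 13.3%). The lactosylceramide synthase B4galt5 rose by 3.06 (SE 0.21, limma adjusted p = 1.63e-07), from a range of 1.52 to 4.86 FPKM in NC to 21.4 to 45.1 in HFD mice. In SZ-A mice B4galt5 ran from 6.57 to 30.3 FPKM and differed from HFD mice by -1.27 (limma adjusted p = 0.0127) and was 1.79 above NC on the log2 scale (limma adjusted p = 0.0122). B4galt6, the other lactosylceramide synthase, was at 19.2 ± 4.52 FPKM in HFD and 6.84 ± 2.24 in SZ-A mice (SD, n = 7 each), a log2 fold change of -1.38 (limma adjusted p = 3.83e-04) without overlap.

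Among the breakdown genes, 6 of 11 for lysosomal glycosphingolipid breakdown were higher in HFD than in NC mice and none lower (beside 21.0% and 20.1% of all genes), and 6 were lower in SZ-A-treated than in HFD mice and none higher (beside 13.3% and 9.47%). Psap, the precursor of the saposins that present lipids to lysosomal hydrolases, rose by 2.85 in HFD against NC mice (SE 0.30, limma adjusted p = 6.72e-06), from 525 ± 138.9 to 3825 ± 1213 FPKM (SD, n = 6 and 7). Acer2, a Golgi ceramidase, was higher in SZ-A-treated than in HFD mice by 0.88 (SE 0.27, limma adjusted p = 0.0294). Of the other ceramidases in the list, Asah1 was lower by 0.93 (limma adjusted p = 0.00168), without overlap, and Acer3 by 0.77 (limma adjusted p = 0.0253). Asah2 did not pass (-0.23). In HFD against NC mice Asah1 rose by 1.24 (limma adjusted p = 3.18e-04), and the other ceramidases did not pass. For sphingosine 1-phosphate, Sphk2, the other sphingosine kinase, did not pass (0.42 and -0.30), and Plpp2, a lipid phosphatase, fell by 0.99 in HFD against NC mice (limma adjusted p = 0.00404). Sgpl1 rose by 1.41 in HFD against NC (limma adjusted p = 3.23e-04) and fell by 0.96 in SZ-A against HFD mice (limma adjusted p = 0.00389). Spns2 rose by 0.54 in the latter (limma adjusted p = 0.0394). Of 4 receptor genes, 2 were higher in HFD than in NC mice and 2 lower in SZ-A-treated than in HFD mice (beside 21.0% and 13.3% of all genes). S1pr2 changed most, by 2.69 and -1.32 (limma adjusted p = 1.16e-07 and 0.00112). Macrophage markers were higher in all HFD mice than in any NC mouse, and their part in these changes was not tested.

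Without NC replicate 6, 29 of the 55 genes were called in HFD against NC mice in place of 25. The lowest count with a mouse left out was 19, without HFD replicate 5. Without HFD replicate 1, 21 were called, and 13 in place of 22 in SZ-A against HFD mice. The count in SZ-A against HFD mice was also 13 without HFD replicate 5, SZ-A replicate 3 or SZ-A replicate 4 and 14 without SZ-A replicate 1. In SZ-A against NC mice it was 7 in place of 11 without SZ-A replicate 3 or SZ-A replicate 6. The share of all genes called was not computed for these fits, so the shifts cannot be called particular to this pathway.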

How the data were processed

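Total RNA from the eWAT of 20 mice was made into poly(A) libraries and sequenced as paired-end reads. Alignment by the authors used HISAT2 and GRCm38, and the submitters' processing notes name featureCounts 1.5.0-p3. The annotation release and the strand setting of the counting are not given in the sources used here. The values are FPKM, deposited by the authors for 14776 genes, all above 0 in every mouse. Genes on the opposite strand overlap Cers2, Cers4, Cers5, Sgms1, Sphk1 and Sptlc2, and their reads cannot be told apart without strand. On the same strand, 6 annotated genes overlap Cers6 and 1 overlaps Sgms1. Gene positions and exon lengths are from GENCODE M21. Multiplied by exon length, 95.9% to 96.3% of values under 1000 reads were whole multiples of 1 step per mouse within 0.01 reads (a share of 0.95 was required), which gave the reads behind each value and served only an alternative with voom. The step also implies a library size per mouse. In HFD replicate 1 it was 15406890, below the 17212523 reads on the deposited genes. The divisor was thus not a plain total of reads, and how it was set is not given.

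The comparisons were fitted to log2(FPKM + 1) in limma 3.58.1 (R 4.3.3) with a variance trend, leaving out genes whose mean in the 2 groups was below 0.1 FPKM. P-values were adjusted by Benjamini-Hochberg over all genes tested, with 0.05 as the threshold. The study's DESeq2 was not used because FPKM are not counts. Fold changes on this scale depend on the pseudocount for low genes and usually understate their changes, but that of Cers4 in HFD against NC was -0.35 here and -0.30 and -0.28 with pseudocounts of 0.1 and 0.01. Exact permutation tests used every regrouping of the mice. The steps were also run on simulated data. The outcome is not reported here, so that run does not show whether changes of the size and spread seen here are recovered. Tables and plots were made with Python 3.11.15, pandas 2.3.3 and matplotlib 3.10.9. The labels give 6 NC mice where the paper gives 7 per group, each sample is taken as 1 mouse, and no batch or date is given.

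The 10 genes, the pathway and marker lists and the tests were chosen with earlier results of these data known. Of the other pathway genes, those named are the 2 largest rises and 2 largest falls among the called genes of each comparison, plus Sptlc3, Sptssa, Ormdl3, Sgms2, Sphk2, Degs2, Cers1 and Cers3. Not every gene that this rule covers is reported here. Asah1, Asah2, Acer3, Sgpl1, Spns2 and S1pr2 were named in addition, after seeing the data. In SZ-A against NC only Kdsr fell (-0.67, adjusted p = 0.0309 by limma). Alternatives were other pseudocounts, low-value filters, quantile and median-ratio scaling, all groups in 1 fit, array quality weights, robust moderation, voom, a replicate block, the stricter threshold and each mouse left out. The same alternatives for the other pathway genes, and the fold change above 1.5, were added after seeing the data.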

Additional observations from a re-analysis of the deposited data

Results flagged for a closer look

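Of 30 sets of values, the 10 genes in each of 3 groups, 1 held a mouse whose distance from the nearest other mouse was large for the range of its group (Dixon's 95% criterion). Sptlc2 in SZ-A replicate 6 was at 13.6 FPKM, against 8.49 to 9.65 in the other SZ-A mice. Chance flags about 1 in 20 such sets. The macrophage markers of this mouse summed to 3601 FPKM, and SZ-A replicate 5, at 4770 FPKM, had 8.89 FPKM of Sptlc2. The cause was not tested. Without SZ-A replicate 6, Sptlc2 differed between SZ-A and HFD mice by -0.48 on the log2 scale.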

How the results depend on the processing

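Of 730 recomputed log2 fold changes of the 10 genes in the 3 comparisons, 28 lost the call, 10 gained it and 21 changed sign, while 15 of the 30 changes had the same call throughout. Degs1 was called in every fit of HFD against NC and of SZ-A against HFD. The 10 genes called numbered 3 in HFD against NC, with 2 under quantile normalization (Cers2 lost), 4 under array quality weights, 0 at a log2 fold change above 1.5, 2 at a fold change above 1.5 and 2 to 5 with a mouse left out (5 without NC replicate 6). In SZ-A against HFD they numbered 3, with 5 under array quality weights, 0 at a log2 fold change or a fold change above 1.5 and 1 to 4 with a mouse left out. In SZ-A against NC they numbered 1, with 0 under quantile normalization, 0 at a log2 fold change above 1.5 and 0 to 1 with a mouse left out. Of the 55 other pathway genes, 13 to 23 were called with a mouse left out in SZ-A against HFD, and in SZ-A against NC 19 under array quality weights and 7 to 12 with a mouse left out. The share of all genes called was computed for the main fits only, so these counts have none beside them for the other fits.

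Whether the replicate numbers pair the mice is not known. Correlations of same-numbered deviations ran from -0.284 to 0.297, -0.389 to 0.371 and -0.41 to 0.584 in the 3 comparisons. Mice of different numbers were not correlated beside them, so these values cannot decide on a pairing. With a replicate block, 2 of the 10 genes were called in HFD against NC, 2 in SZ-A against HFD and 0 in SZ-A against NC, where the other pathway genes called fell to 3.

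The signs that changed belonged to differences that passed in no fit. In SZ-A against HFD, Sptlc1 was 0.0083 under quantile normalization, 0.0773 under array quality weights and -0.0605 to 0.0219 with a mouse left out. Sgms1 was 0.17 under array quality weights and -0.12 to 0.0235 with a mouse left out, and Sphk1 -0.26 to 0.0745. Sphk1 in HFD against NC ran from -0.47 to 0.0205 with a mouse left out. In SZ-A against NC, Cers2 was -0.0282 under quantile normalization and -0.0393 to 0.10 with a mouse left out, Cers4 -0.0946 under array quality weights and -0.29 to 0.31 with a mouse left out, and Cers6 -0.19 to 0.0825. The cause of these shifts was not tested. Depth did not limit these genes to few reads, with at least 78 in every mouse.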
